A study of Mus musculus with 2 samples.

Results

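The 8 genes described here are Xpnpep2, Slc12a8, Timp4, Cplx1, Tinagl1, Cemip, Bhmt and Ptgs1, out of 29373 gene symbols listed in either of 2 single-cell RNA libraries of mouse ovary. They were chosen by their measured level in an earlier analysis of the same libraries, where they led 1 cluster of steroid-producing cells and almost all cells of that cluster came from the library of mice given polystyrene microplastics. Their level in such cells, relative to other cells and to the control library, is therefore given as a description with no test. All 8 symbols were listed in both libraries and all 8 were found in both.

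The microplastic library, labelled PS-MP, came from female ICR mice gavaged daily for 35 days from 3 weeks of age with 1 mg of polystyrene particles of 0.1 µm in 100 µL. The control library came from female ICR mice of the same age given water (ddH2O) by the same route, with the treatment labelled WT. These were 2 of 5 randomised groups of the study. Ovaries were taken at 8 weeks of age, 1 day after the last gavage by the labels' protocol, freed of fat, digested with enzymes and captured on BD Rhapsody beads. The labels state n = 16 without saying whether this holds for each group, and cells cannot be assigned to single mice from the labels. A group therefore counts as 1 sample. No label gives the stage of the oestrous cycle. There is no replicate check on any difference between the libraries, no test was run, and every interval covers counting error only.

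Values are UMIs, that is, molecules counted once each by a random tag. A level is the UMIs of a gene summed over a group of cells, per 1000000 UMIs of those cells (CPM), with an exact 95% Poisson interval. After filters the PS-MP library kept 14412 cells with a median of 8643 UMIs and the control library 14538 cells with a median of 9502.5 UMIs. A total of 3 cell index numbers occurred in both libraries. Capture differs between genes, so levels are compared between cells and libraries for 1 gene at a time.

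When an ovarian follicle ovulates, the granulosa cells that stay behind stop dividing, take up cholesterol and turn into luteal cells that make progesterone. Cyp11a1, the side-chain cleavage enzyme that starts steroid synthesis, rises to a high level in these cells and is also high in theca cells, which are told apart by Cyp17a1, the enzyme of androgen synthesis. Edn2, endothelin 2, is a constrictor peptide that granulosa cells make briefly around ovulation. Older luteal cells carry Ptgfr, the receptor of the prostaglandin that ends the life of the corpus luteum, and Akr1c18, an enzyme that inactivates progesterone.

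The 8 genes have different roles. Tinagl1 encodes a secreted glycoprotein of basement membranes, Cemip a protein that binds hyaluronan and is needed for its breakdown, and Timp4 an inhibitor of matrix metalloproteinases. Xpnpep2 encodes a membrane aminopeptidase that cleaves before proline and can inactivate bradykinin. Bhmt encodes the enzyme that methylates homocysteine with betaine, best known from liver, and Ptgs1 is cyclooxygenase 1, which makes the precursor of prostaglandins. Cplx1 encodes complexin 1, a regulator of SNARE-driven vesicle fusion best known from neurons, and Slc12a8 a member of the cation-chloride cotransporter family.

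Promoter windows of 300 bases (250 before and 50 after the annotated start) were taken from RefSeq on build GRCm38.p6, by gene symbol. There were 11 windows for the 8 genes, 3 of them for Slc12a8 and 2 for Tinagl1. They were searched on both strands for 7 motifs, and no 2 matches in these windows overlapped. The motifs were the NR5A site AAGGTCA, the cAMP response element TGACGTC, the AP-1 site TGANTCA and the GATA site AGATAA, then SP1 as GGGCGG, RUNX as TGTGGT and the TATA box as TATAAA. These name factors that act in granulosa cells around ovulation or general promoter elements. The NR5A site stood in 1 of the 11 windows, against 4.72% of all 32851 windows, and AP-1 in 1 of 11 (7.81% of all). GATA stood in 3 of 11 windows, of 2 genes (11.2% of all), SP1 in 4 of 11, of 4 genes (35.7% of all), and the TATA box in 1 of 11 (13.6% of all). The cAMP response element (3.21% of all) and RUNX (16.8% of all) matched in 0 of the 11 windows. Xpnpep2, Timp4 and Ptgs1 had 0 matches to any of the 7.

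The next 3 windows are shown because they span that range: Bhmt with 2 NR5A sites, Cemip with a TATA box, and Xpnpep2 with no match. Capitals mark the motif matches, and positions count from 1 at the 5′ end of the window. In Bhmt (chr13:93637709-93638008, minus strand) the NR5A sites started at positions 178 and 203 and GATA at position 249. In Cemip (chr7:84086456-84086755, minus strand) the SP1 matches started at positions 83 and 106 and the TATA box at position 222. The Xpnpep2 window is chrX:48108475-48108774 on the plus strand.
Bhmt: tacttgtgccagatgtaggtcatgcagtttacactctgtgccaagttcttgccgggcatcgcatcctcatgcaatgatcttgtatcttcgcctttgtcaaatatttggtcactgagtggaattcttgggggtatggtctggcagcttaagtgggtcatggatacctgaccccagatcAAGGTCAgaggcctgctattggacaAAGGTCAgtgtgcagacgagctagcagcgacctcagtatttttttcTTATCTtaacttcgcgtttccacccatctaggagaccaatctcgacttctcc
Cemip: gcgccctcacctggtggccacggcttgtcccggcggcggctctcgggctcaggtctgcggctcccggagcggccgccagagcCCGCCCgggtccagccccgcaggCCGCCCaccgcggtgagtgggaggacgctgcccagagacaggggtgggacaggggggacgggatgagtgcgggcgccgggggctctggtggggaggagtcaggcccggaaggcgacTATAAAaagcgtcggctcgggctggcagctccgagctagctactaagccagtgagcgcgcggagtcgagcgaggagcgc
Xpnpep2: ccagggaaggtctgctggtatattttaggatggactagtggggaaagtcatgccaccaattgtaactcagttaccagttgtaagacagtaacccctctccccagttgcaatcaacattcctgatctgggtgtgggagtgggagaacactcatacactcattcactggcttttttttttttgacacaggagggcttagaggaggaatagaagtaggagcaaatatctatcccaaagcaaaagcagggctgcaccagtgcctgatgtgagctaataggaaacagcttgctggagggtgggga
A match describes letters only, and no binding was measured here.

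Cells were called Cyp11a1-high when Cyp11a1 made up at least 2000 CPM of the cell's UMIs. There were 2497 such cells in the PS-MP library, 17.3% of its kept cells (16.7 to 17.95), and 717 in the control library, 4.93% (4.59 to 5.30). Few cells lay near the limit: 75 PS-MP and 63 control cells stood between 1500 and 2000 CPM, and 84 PS-MP and 48 control cells between 2000 and 2500 CPM. Cyp11a1-high cells were split by genes other than the 8. Cells with at least 500 CPM of Cyp17a1 formed the Cyp17a1 gate (243 PS-MP and 280 control cells). Of the rest, cells with at least 500 CPM of Akr1c18 or Ptgfr formed the Akr1c18/Ptgfr gate (214 PS-MP and 151 control cells), and the others the neither gate (2040 PS-MP and 286 control cells).

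The neither gate held different cells in the 2 libraries. In clusters built without the 8 genes, 1763 of its PS-MP cells lay in cluster 5, led by Xpnpep2, Edn2 and Timp4, 26 in cluster 11, led by Onecut2 and with Akr1c18 and Ptgfr among its leading genes, and 214 in the theca-like cluster. Of its control cells, 5 lay in cluster 5, 86 in cluster 11 and 171 in the theca-like cluster. Over all kept cells cluster 5 held 1921 PS-MP cells and 7 control cells. All 12 fixed luteal markers reached 20 CPM in the PS-MP cells of cluster 5, and 0 of them were among its 10 leading genes. Their summed level in the neither gate was 20442 CPM in the PS-MP library and 21895 CPM in the control library. The defining theca marker Cyp17a1 stood there at 8.77 CPM in PS-MP cells and 35.8 CPM in control cells. This is low by construction, as cells with at least 500 CPM of it had been taken out. The summed theca list stood at 5283 CPM in PS-MP cells and 11385 CPM in control cells. Of this, Hsd3b1 made up 3649 CPM (PS-MP) and 8140 CPM (control), and it stood at 4852 CPM in the PS-MP Akr1c18/Ptgfr gate. Lhcgr is on both the theca and the luteal list. Neither value measures the share of theca cells. Of the 8 theca markers, 4 reached 20 CPM in PS-MP cells and 6 in control cells, and 0 and 1 of them were at 0. The median mitochondrial share was 8.66% in PS-MP cells and 12.2% in control cells of the gate. The part of these differences in the levels below was not tested. The data hold no time or stage, so "early" is not a measurement, and the cells are called here by gate and cluster.

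In the neither gate all 8 genes had their highest level of any cell group of the PS-MP library, and 7 of the 8 were at least 2-fold higher in PS-MP cells than in control cells. Of 7384 genes with at least 20 CPM in 1 of the libraries, 5.05% passed 2-fold upward in PS-MP cells. Downward, 4.02% of genes passed and 0 of the 8 did. The choice of genes used this contrast, so nothing is read from these counts. The summed level of the 8 was 3327 CPM (3303 to 3350) in PS-MP cells and 692 CPM (666 to 719) in control cells.

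Among the genes of the matrix, Tinagl1 stood at 1334 CPM (1319 to 1349) in PS-MP cells and 75.3 CPM (66.9 to 84.5) in control cells of the gate, a ratio of 17.7 (15.8 to 19.96). Cemip stood at 927 CPM (915 to 940) in PS-MP cells and 345 CPM (327 to 365) in control cells, a ratio of 2.68 (2.54 to 2.84). Timp4 stood at 123 CPM (119 to 128) in PS-MP cells and 17.8 CPM (13.8 to 22.5) in control cells, a ratio of 6.94 (5.46 to 8.97). No pair of intervals met for these 3 genes.

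Among the enzymes, Ptgs1 had the widest gap of the 8 between the libraries, at 124 CPM (120 to 129) in PS-MP cells and 1.83 CPM (0.736 to 3.77) in control cells. The control value rested on 7 UMIs. Xpnpep2 stood at 200 CPM (194 to 206) in PS-MP cells and 13.9 CPM (10.4 to 18.1) in control cells, a ratio of 14.4 (11.01 to 19.3). Bhmt was the only one of the 8 under a 2-fold difference in this gate: it stood at 153 CPM (148 to 159) in PS-MP cells and 132 CPM (120 to 144) in control cells, a ratio of 1.17 (1.06 to 1.28). By cluster, its level in the gate was 174 CPM (169 to 180) in the 1763 PS-MP cells of cluster 5. It was higher, at 299 CPM (272 to 327), in the 86 control cells of cluster 11, and 9.07 CPM in the 171 theca-like control cells. The part of this mixture in the ratio was not tested.

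Slc12a8, the transporter, stood at 358 CPM (351 to 366) in PS-MP cells and 89.7 CPM (80.4 to 99.7) in control cells, a ratio of 3.995 (3.59 to 4.46). Cplx1, the vesicle fusion gene, stood at 107 CPM (102 to 111) in PS-MP cells and 16.5 CPM (12.7 to 21.1) in control cells, a ratio of 6.48 (5.04 to 8.46). Edn2 stood at 308 CPM in PS-MP cells and 8.37 CPM in control cells. It was not used to set the gates, but it is a leading gene of cluster 5, so nothing is read from this gap.

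**Figure D1:**
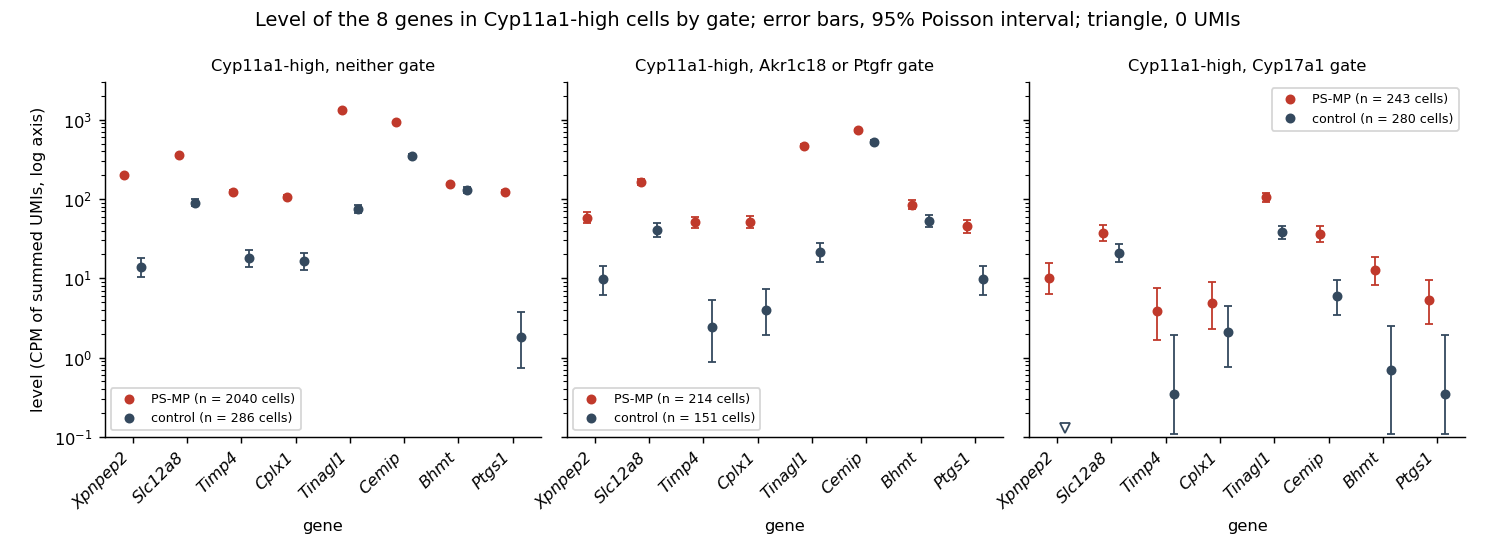
Level of each of the 8 genes in Cyp11a1-high cells of the neither gate, the Akr1c18/Ptgfr gate and the Cyp17a1 gate, as CPM of summed UMIs on a log axis, for the PS-MP library (red, left of each pair) and the control library (dark blue), with 95% Poisson intervals. Tinagl1 stands at 1334, 473 and 106 CPM in the PS-MP cells of the 3 gates, and Bhmt at 153 CPM in PS-MP cells and 132 CPM in control cells of the neither gate.

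Cells with Akr1c18 or Ptgfr had lower levels of all 8 genes than the neither gate within the PS-MP library. At 2-fold, 6 of the 8 were higher in the neither gate, against 2.47% of 7293 genes, and 0 of the 8 were lower, against 3.99% of these genes. Again the genes had been chosen for cells of this kind. Tinagl1 was at 1334 CPM in the neither gate and 473 CPM in the Akr1c18/Ptgfr gate, a ratio of 2.82 (2.67 to 2.98), and Xpnpep2 at 200 CPM in the neither gate and 58.3 CPM in the Akr1c18/Ptgfr gate, a ratio of 3.43 (2.93 to 4.03). Cemip and Bhmt differed least, at ratios of 1.26 (1.20 to 1.31) and 1.80 (1.58 to 2.06). Edn2 had a ratio of 4.12 (3.59 to 4.75). This PS-MP gate was mixed: 100 of its 214 cells lay in cluster 5 and 107 in cluster 11. The 107 cells had Tinagl1 at 48.7 CPM (75 of the 1321 UMIs of the gate) and Xpnpep2 at 5.19 CPM (8 of 163 UMIs). The ratios above therefore do not compare cells of 1 cluster, and the part of the cluster in them was not tested. In its control cells, of which 139 of 151 lay in cluster 11, Cemip stood at 521 CPM, Bhmt at 52.7 CPM and Slc12a8 at 40.6 CPM, and the other 5 genes between 2.41 and 21.3 CPM.

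The Cyp17a1 gate, nearly all of it theca-like (234 of 243 PS-MP and 275 of 280 control cells), had low levels of the 8 genes in both libraries. Their summed level was 216 CPM (197 to 238) in PS-MP cells and 68.4 CPM (59.1 to 78.6) in control cells. Tinagl1 took 106 CPM of this in PS-MP cells and 38.2 CPM in control cells. Xpnpep2 was at 10.2 CPM in PS-MP cells (21 UMIs) and at 0 UMIs in control cells, where 3 UMIs would be 1.04 CPM.

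The 8 genes were also found in luteal-like cells of the control library. Cluster 11, the one luteal-like cluster with many control cells (135 PS-MP and 229 control cells), had Cemip at 595 CPM (561 to 631) in PS-MP cells and 521 CPM (499 to 544) in control cells. Bhmt was lower in the PS-MP cells of this cluster, at 32.8 CPM against 153 CPM in control cells, a ratio of 0.214 (0.162 to 0.279). Slc12a8 was lower as well, at 42.5 CPM in PS-MP cells and 97.5 CPM in control cells, a ratio of 0.436 (0.338 to 0.556). These were 2 of the 4 members with at least 20 CPM, where 1.6% of 7043 genes were at least 2-fold lower. None of the 4 was at least 2-fold higher, where 1.41% of genes were. Tinagl1 stood at 54.8 CPM in PS-MP cells and 47.1 CPM in control cells, with a ratio whose interval included 1 (0.906 to 1.49). Lhcgr, the receptor of luteinising hormone, had a ratio of 0.612 in the same cells.

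The gates divided that cluster unequally, with 26 PS-MP and 86 control cells in the neither gate and 107 PS-MP and 139 control cells in the Akr1c18/Ptgfr gate. Among the control cells of cluster 11, those of the neither gate had Bhmt at 299 CPM (272 to 327) against 55.9 CPM (46.7 to 66.4) in the Akr1c18/Ptgfr gate. Slc12a8 stood at 180 CPM in the neither gate and 42.6 CPM in the Akr1c18/Ptgfr gate of these control cells, Timp4 at 40.2 CPM in the neither gate and 2.58 CPM in the Akr1c18/Ptgfr gate, and Cplx1 at 37.7 CPM in the neither gate and 4.30 CPM in the Akr1c18/Ptgfr gate. Cemip stood at 523 CPM in the neither gate and 515 CPM in the Akr1c18/Ptgfr gate, and Ptgs1 at 2.52 CPM in the neither gate and 8.60 CPM in the Akr1c18/Ptgfr gate. In the PS-MP cells of cluster 11, Slc12a8 stood at 42.7 CPM (22.1 to 74.6) in the 26 neither-gate cells, below the control value there, and at 42.2 CPM (32.6 to 53.8) in the 107 cells of the Akr1c18/Ptgfr gate, close to the control value. Bhmt stood at 85.5 CPM (54.8 to 127) in the PS-MP cells of the neither gate and 23.4 CPM (16.4 to 32.3) in those of the Akr1c18/Ptgfr gate, below the control value in both. Within this cluster the neither gate thus had lower values in PS-MP than in control cells for Slc12a8 and Bhmt, whereas over all cells of the gate they were higher. Timp4 at 17.8 CPM (5 UMIs) and Cplx1 at 14.2 CPM (4 UMIs) in these 26 PS-MP cells were also below the control values, with intervals that met for both genes. Xpnpep2 was detected in 22.1% of the 86 control cells of the neither gate, Cemip in 90.7%, the other 5 genes at shares in between, and Ptgs1 in 3.49%. Of the 86 cells, 48 had at least 4 of the 8 genes, 55.8%, at a median of 15746.5 UMIs. At 3500 UMIs per cell this share was 5.81%.

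A further 55 PS-MP cells and 4 control cells of the 2 luteal-like clusters stood under the Cyp11a1 limit. In these 55 PS-MP cells Ptgs1 was at 114 CPM (87.3 to 147), which met its interval in the neither gate, while Tinagl1 was at 564 CPM (502 to 632), Slc12a8 at 101 CPM (75.7 to 132) and Cplx1 at 11.4 CPM. Cemip was at 639 CPM (572 to 711) in the 55 PS-MP cells and at 885 CPM (597 to 1264) on 30 UMIs in the 4 control cells, 25 of them from 1 cell. The other 7 genes had 0 UMIs in these control cells, where 3 UMIs would be 88.5 CPM.

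The library totals show where the molecules were. In the PS-MP library, Cyp11a1-high cells were 17.3% of the kept cells and held between 89.2% (Tinagl1) and 96.8% (Xpnpep2) of the molecules of each gene, and cluster 5 alone between 88.0% and 95.3%. In the control library, the 4.93% of cells that were Cyp11a1-high held 89.8% of Bhmt molecules, 88.5% of Xpnpep2 molecules and 80.3% of Cemip molecules. They held 67.7% of Slc12a8, 48.5% of Cplx1 and 41.9% of Timp4 molecules. Only 11.48% of Tinagl1 molecules and 6.67% of Ptgs1 molecules of the control library lay in these cells. Control Ptgs1 was mostly in macrophage or monocyte-like cells (337 of 480 UMIs), and 48.9% of control Tinagl1 lay in granulosa-like cells, which were 71.3% of that library's cells. The totals themselves were small in the control library for Xpnpep2, with 87 UMIs in all kept cells against 4901 in the PS-MP library.

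Detection in PS-MP cells of the neither gate put Tinagl1, Cemip, Slc12a8 and Xpnpep2 in the same order as their levels, and ranked the other 4 genes differently. In the PS-MP cells of the neither gate Tinagl1 had at least 1 UMI in 93.6% of cells, Cemip in 89.3%, Slc12a8 in 79.5% and Xpnpep2 in 57.3%. Timp4 was found in 55.1% of these cells, Bhmt in 50.7%, Cplx1 in 44.2% and Ptgs1 in 37.7%. In the control cells of the gate the shares were 40.6% for Tinagl1, 45.1% for Cemip, 31.8% for Slc12a8 and 26.6% for Bhmt, and between 2.10% (Ptgs1) and 11.54% (Cplx1) for the other 4 genes. The median depth was 9599 UMIs in PS-MP cells and 11195.5 UMIs in control cells, so the shallower cells had the higher shares. At 3500 UMIs per cell, a depth that every kept cell reached, Tinagl1 was found in 88.3% of PS-MP and 18.5% of control cells of the gate, Cemip in 79.6% of PS-MP and 28.0% of control cells, Bhmt in 31.0% of PS-MP and 15.7% of control cells, and Ptgs1 in 23.0% of PS-MP and 0.699% of control cells. Granulosa-like cells under the limit, with medians of 8962 UMIs (PS-MP) and 9948 UMIs (control), were set beside these as cells with low levels of the 8, although Tinagl1 and Cemip stood higher in single clusters of them. There the shares were 15.2% (PS-MP) and 8.03% (control) for Tinagl1, 6.45% (PS-MP) and 2.57% (control) for Cemip, and between 0.828% and 3.29% (PS-MP) or 0.0387% and 0.957% (control) for the others.

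Cells that held several of the 8 genes at once were frequent among PS-MP Cyp11a1-high cells. At least 4 of the 8 were detected in 1740 of 2497 PS-MP cells, 69.7% (67.8 to 71.5), and in 78 of 717 control cells, 10.9% (8.69 to 13.4). With every cell thinned to 3500 UMIs the shares were 52.7% in PS-MP cells and 1.39% in control cells. All 8 genes were found together in 206 PS-MP cells, 8.25% (7.20 to 9.40), and in 0 of 717 control cells, which allows a share of up to 0.418%. None of the 8 was found in 208 PS-MP cells, 8.33% (7.28 to 9.48), and in 287 control cells, 40.0% (36.4 to 43.7). The median cell had 5 of the genes in the PS-MP library and 1 in the control library.

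By gate, at least 4 genes were detected in 80.4% of PS-MP and 22.0% of control cells of the neither gate, and in 43.9% of PS-MP and 9.93% of control cells of the Akr1c18/Ptgfr gate. The median depths were 9599 UMIs (PS-MP) and 11195.5 UMIs (control) in the neither gate, and 11631 UMIs (PS-MP) and 15894 UMIs (control) in the Akr1c18/Ptgfr gate. Thinned to 3500 UMIs, the shares were 60.7% of PS-MP and 2.45% of control cells in the neither gate, and 32.7% of PS-MP and 1.99% of control cells in the Akr1c18/Ptgfr gate. In the Cyp17a1 gate the counts before thinning were 6 of 243 PS-MP cells and 0 of 280 control cells. Of the 1779 PS-MP cells with at least 4 genes, whatever their Cyp11a1, 1740 were Cyp11a1-high (97.8%) and 1717 lay in cluster 5. Of the 78 such control cells, all were Cyp11a1-high, 61 lay in cluster 11, 12 in the theca-like cluster and 5 in cluster 5. In granulosa-like cells under the limit, 15 of 9183 PS-MP cells had at least 4 genes and 0 of 10345 control cells did, which allows a share of up to 0.0290%.

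**Figure D2:**
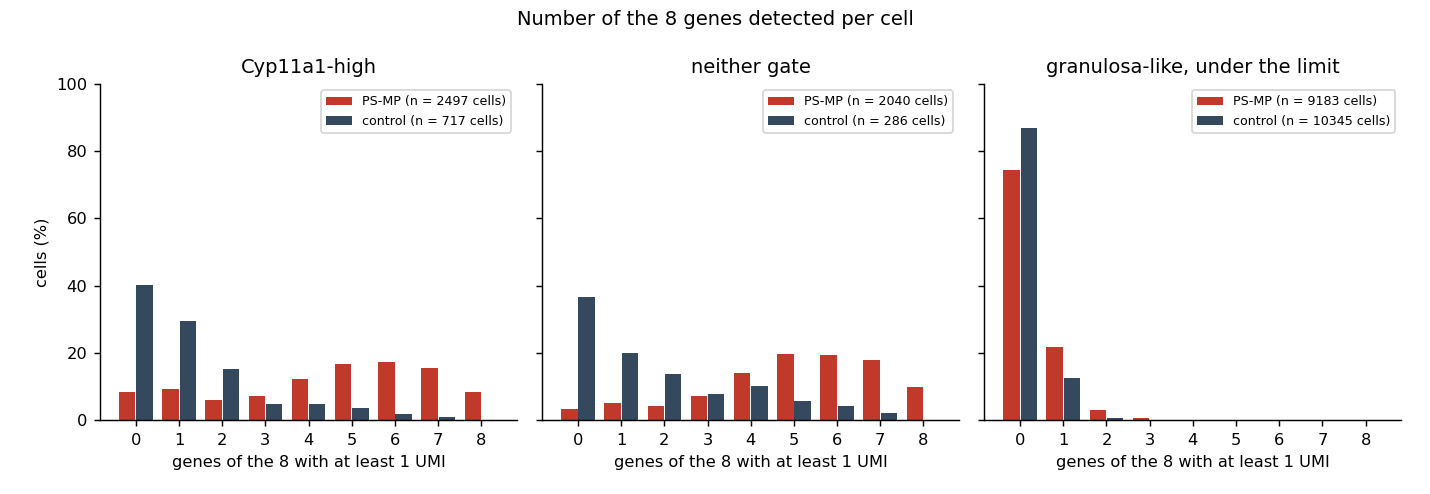
Percent of cells (vertical axis) by the number of the 8 genes with at least 1 UMI (horizontal axis), in PS-MP (red) and control (dark blue) cells, for all Cyp11a1-high cells, the neither gate and granulosa-like cells under the Cyp11a1 limit. PS-MP Cyp11a1-high cells peak at 6 genes with 17.2% of cells, and control cells at 0 genes with 40.0%.

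Within the PS-MP neither gate, each gene was detected more often in cells that also held another of the 8. Bhmt was found in 63.4% of cells with Xpnpep2 and 33.6% of cells without it, and Cplx1 in 63.2% of cells with Bhmt and 24.6% of cells without it. Ptgs1 was found in 43.0% of cells with Bhmt and 32.2% of cells without. All genes of a cell share its depth and its cluster, and the part of these in such pairs was not tested. On UMIs thinned to 3500 per cell, Pearson r between pairs lay between −0.0746 (Bhmt with Ptgs1) and 0.205 (Slc12a8 with Tinagl1) over the 2040 cells, too weak in sparse counts to be a finding.

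The 8 genes differed in how evenly their molecules were spread over these 2040 cells. The 10% of cells with most Tinagl1 UMIs held 27.4% of its molecules, and the values for Cemip and Slc12a8 were 31.1% and 35.1%. For Timp4, Xpnpep2, Bhmt and Cplx1 the values lay between 42.8% and 50.5%. Ptgs1 was the most uneven, with 60.1% of its molecules in the top 10% of cells, a median cell at 0 CPM and a highest cell at 5322 CPM.

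Split by the level of Cyp11a1, all 8 genes stood lowest in the PS-MP cells of the neither gate with least Cyp11a1. In the PS-MP cells of the neither gate with 2000 to under 4000 CPM of Cyp11a1 (272 cells), 4000 to under 8000 CPM (1063 cells) and 8000 CPM or more (705 cells), Bhmt stood at 57.0, 154 and 186 CPM. Cplx1 stood at 45.7, 103 and 133 CPM in these 3 bins, Tinagl1 at 744, 1377 and 1471 CPM, and Cemip at 780, 1002 and 864 CPM. The lowest bin held a smaller part of cluster 5 (184 of its 272 cells). Among cluster 5 cells alone Bhmt still stood at 80.5, 170 and 208 CPM and Cplx1 at 60.6, 113 and 152 CPM, while Cemip stood at 1074, 1089 and 958 CPM and Ptgs1 at 148, 129 and 160 CPM.

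Split by Edn2, all 8 genes were higher in the 981 PS-MP cells of the neither gate in which Edn2 was detected than in the 1059 in which it was not. The clusters differed between these cells: 970 of the 981 cells with Edn2 and 793 of the 1059 cells without it lay in cluster 5. Within cluster 5, Ptgs1 stood at 172 CPM (165 to 179.8) with Edn2 and 97.2 CPM (90.5 to 104) without. Cemip stood at 1130 CPM (1111 to 1149) with Edn2 and 914 CPM (893 to 935) without, and Tinagl1 at 1592 CPM (1569 to 1614) with Edn2 and 1393 CPM (1368 to 1419) without. Cplx1 was lower in the cluster 5 cells with Edn2, at 115 CPM (108 to 121) against 133 CPM (125 to 141) without. For the other 4 genes the intervals of the 2 kinds of cluster 5 cells met: Xpnpep2 stood at 232 CPM with Edn2 and 218 CPM without, Slc12a8 at 398 CPM with and 419 CPM without, Bhmt at 168 CPM with and 184 CPM without, and Timp4 at 140.3 CPM with and 141.8 CPM without. The median depth in cluster 5 was 10557.5 UMIs with Edn2 and 9174 UMIs without, and its part in the split was not tested.

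**Figure D3:**
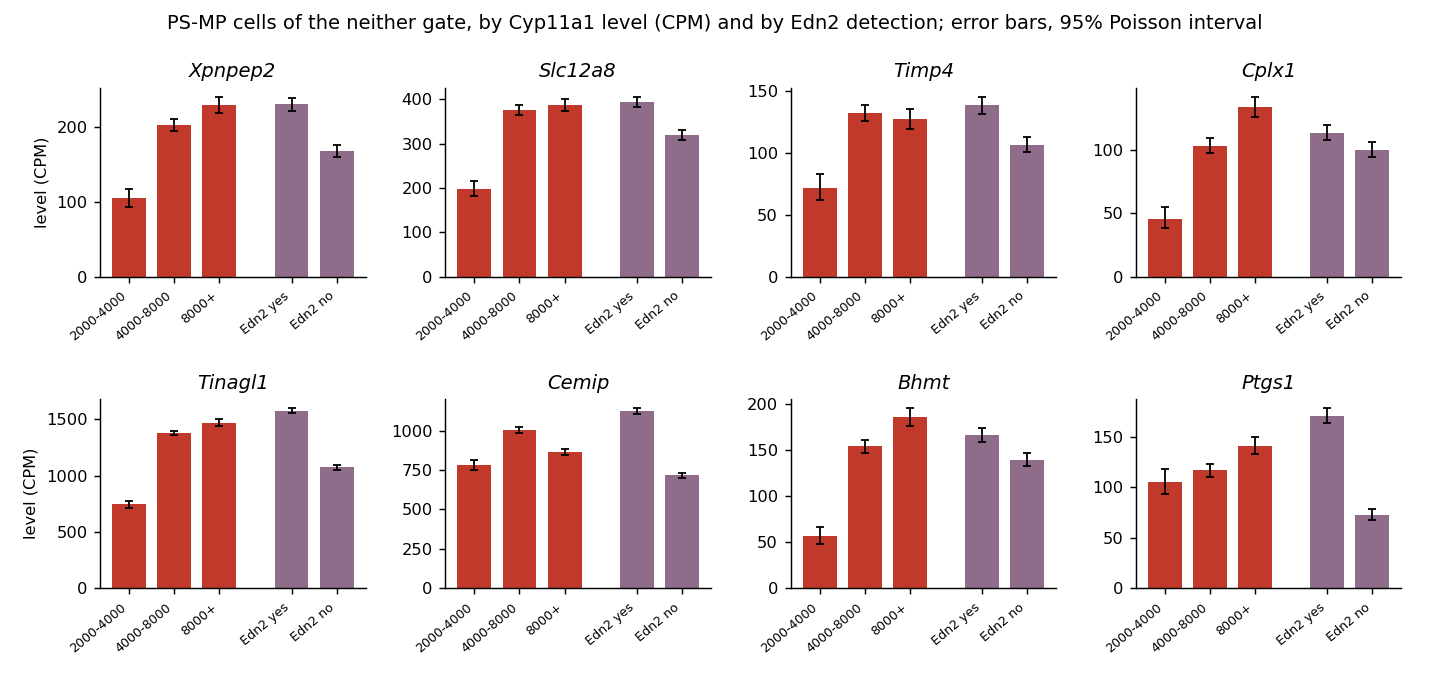
Level (CPM) of each of the 8 genes in PS-MP cells of the neither gate, in 3 bins of Cyp11a1 (red; 272, 1063 and 705 cells) and in cells with and without an Edn2 molecule (purple; 981 and 1059 cells), with 95% Poisson intervals. Bhmt stands at 57.0, 154 and 186 CPM over the bins, and Ptgs1 at 171 CPM with Edn2 and 73.0 CPM without.

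Theca-like cells of the neither gate, which passed the Cyp11a1 limit with little Cyp17a1, were present in both libraries (214 PS-MP and 171 control cells). There Tinagl1 was at 156 CPM (141 to 173) in PS-MP cells and 65.5 CPM (54.7 to 77.8) in control cells. Cemip was at 76.9 CPM (66.1 to 89.0) in PS-MP cells and 211 CPM (191 to 232) in control cells of this kind. It was detected in similar shares of them, 27.1% of PS-MP and 24.6% of control cells. Over all cells of the theca-like cluster Tinagl1 was at least 2-fold higher in PS-MP cells, at 106 CPM against 42.3 CPM in control cells. It was 1 of 3 members with at least 20 CPM, where 0.282% of 7080 genes were at least 2-fold higher. None of the 3 was at least 2-fold lower, where 0.212% of genes were. Cemip had a ratio of 0.647 there (0.559 to 0.747), and Cyp11a1 one of 0.896. Most control Cemip UMIs of this cluster lay in its neither-gate cells. In the Cyp17a1 gate Cemip went the other way, at 36.3 CPM (28.6 to 45.5) in PS-MP and 5.90 CPM (3.44 to 9.45) in control cells. That gate held 4 PS-MP cells of cluster 5, whose part in this was not tested. Theca-like cells under the limit had Cemip at 14.7 CPM in PS-MP and 5.49 CPM in control cells, with intervals that met.

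In the other cell types the 8 genes fell into those with a second site of expression and those without. Tinagl1 stood at 538 CPM (474 to 608) in PS-MP and 675 CPM (620 to 734) in control smooth muscle or pericyte-like cells, and it was found in 76.6% of the PS-MP and 83.3% of the control cells. It stood at 196 CPM (177 to 216) in PS-MP and 209 CPM (192 to 227) in control endothelial-like cells. In the control library these were its 2 highest groups, above the neither gate. In the PS-MP library the order was the neither gate, the luteal-like cells under the limit at 564 CPM, smooth muscle or pericyte-like cells, the Akr1c18/Ptgfr gate at 473 CPM and endothelial-like cells. Intervals met between the second and the third and between the third and the fourth of these groups.

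Ptgs1 stood at 50.2 CPM (41.6 to 60.0) in PS-MP and 55.0 CPM (49.3 to 61.2) in control macrophage or monocyte-like cells. In surface epithelium-like cells, of which there were 12 in the PS-MP and 20 in the control library, it stood at 105 CPM (52.3 to 187) in PS-MP and 107 CPM (59.7 to 176) in control cells. Endothelial-like cells had 10.45 CPM of Ptgs1 in the PS-MP library and 12.7 CPM in the control library. These 3 groups were the highest for Ptgs1 in the control library, and their intervals met those of the same group in the other library.

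Slc12a8 stood at 27.9 CPM (21.1 to 36.2) in PS-MP and 21.6 CPM (16.4 to 28.0) in control endothelial-like cells, where 14.1% of PS-MP and 14.9% of control cells had a molecule. This was close to its level in the Cyp17a1 gate, at 37.8 CPM in PS-MP and 20.8 CPM in control cells, with intervals that met in each library. Xpnpep2, Timp4, Cplx1 and Bhmt stayed under 10 CPM in every PS-MP cell type outside Cyp11a1-high cells and the 55 luteal-like cells under the limit. Xpnpep2 at 9.52 CPM in PS-MP surface epithelium-like cells rested on 1 UMI, and at 14.2 CPM in control ones on 2 UMIs. Oocyte-like cells (64 PS-MP and 62 control cells) had 0 UMIs of Bhmt and of Ptgs1 in both libraries, where 3 UMIs would be 1.99 CPM in PS-MP and 1.57 CPM in control cells. In the unnamed cluster 13, led by Igha and Jchain (34 PS-MP and 129 control cells under the limit), Cemip stood at 28.2 CPM on 5 UMIs in PS-MP cells and 9.71 CPM on 7 UMIs in control cells, and no other member had more than 1 UMI in either library. With the 13 groups of the PS-MP library set in order of level, from the neither gate down, intervals met for 10 of the 12 pairs of neighbours for Xpnpep2 and for 10 of 12 for Timp4.

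**Figure D4:**
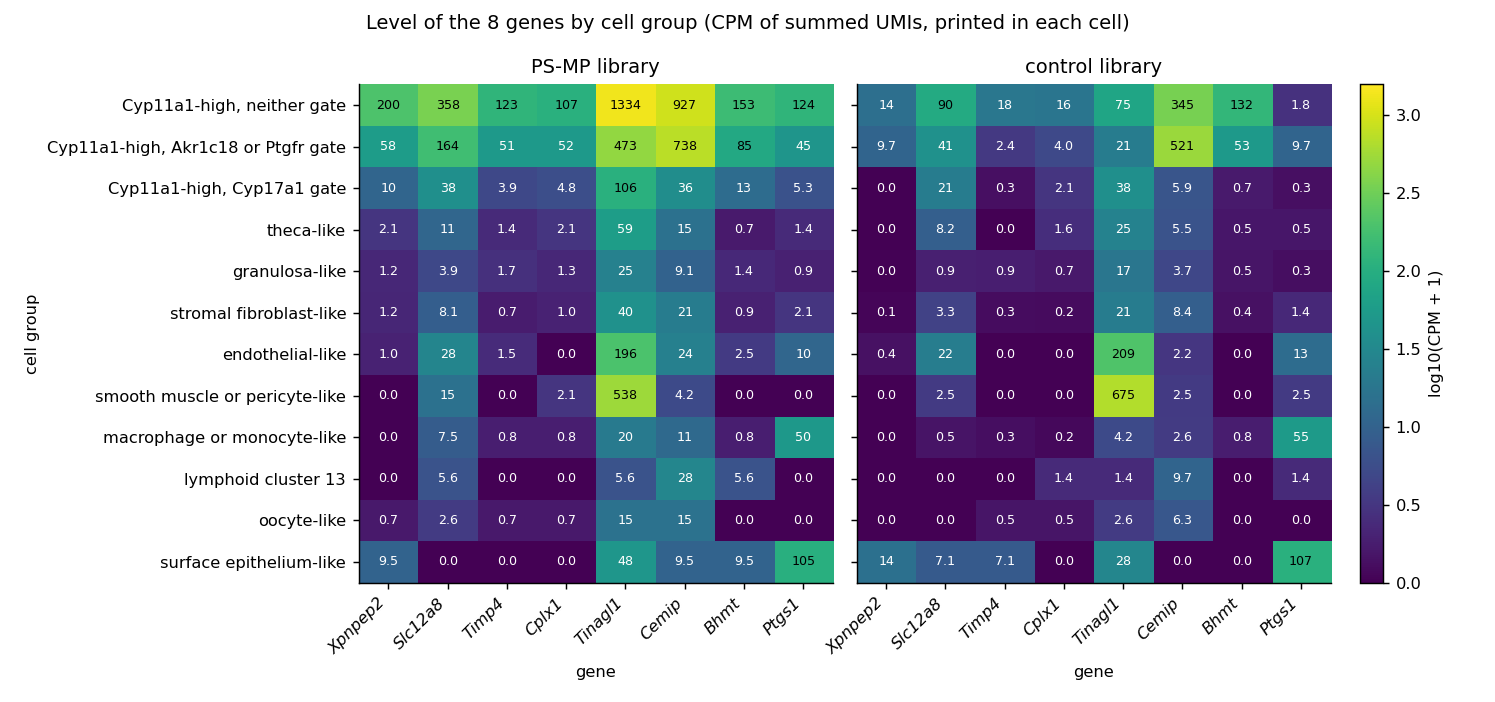
Level of the 8 genes (columns) in 12 cell groups (rows), with the CPM of summed UMIs printed in each cell and log10(CPM + 1) as colour, for the PS-MP library (left) and the control library (right); the luteal-like cells under the limit, 55 PS-MP and 4 control, are left out. The top row is the brightest for all 8 genes in the PS-MP library, while Tinagl1 is bright in smooth muscle or pericyte-like cells of both libraries, at 538 CPM (PS-MP) and 675 CPM (control).

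RNA released from broken cells adds a few molecules of abundant genes to all cells of a library, so low values elsewhere were set against the level in the source. In PS-MP granulosa-like cells under the limit, the 8 genes stood between 0.623% (Xpnpep2) and 1.85% (Tinagl1) of their own PS-MP level in the neither gate. Edn2 stood at 0.9498% and Cyp11a1 at 1.39% by the same measure. Granulosa-like cells of the control library, set against the same PS-MP level, gave 0.0224% for Xpnpep2, 0.260% for Slc12a8, 0.691% for Timp4 and 1.29% for Tinagl1. The PS-MP value minus the control value ran from 0.513% (Ptgs1) to 0.835% (Slc12a8) for the 8 genes, with Edn2 at 0.440%, Cyp11a1 at 0.414% and Lhcgr at −1.82%. Within single granulosa-like clusters the range over the 8 genes was wider, from −0.728% (Timp4 in cluster 9, on 1 PS-MP UMI) to 1.56% (Timp4 in cluster 4). The part of released RNA in these values was not tested.

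The same measure was less even in other cell types. In stromal fibroblast-like cells the difference between the libraries ran from 0.358% for Bhmt to 1.44% for Tinagl1. In PS-MP macrophage or monocyte-like cells Ptgs1 stood at 40.4% and in PS-MP smooth muscle or pericyte-like cells Tinagl1 stood at 40.3% of the neither-gate level, far above the other 7 genes of those cells, which reached at most 2.10% and 4.14%. In the control library these 2 values were 44.3% for Ptgs1 and 50.6% for Tinagl1. Endothelial-like PS-MP cells had Tinagl1 at 14.7%, Ptgs1 at 8.42% and Slc12a8 at 7.78%, and control ones 15.7%, 10.2% and 6.04%.

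**Figure D5:**
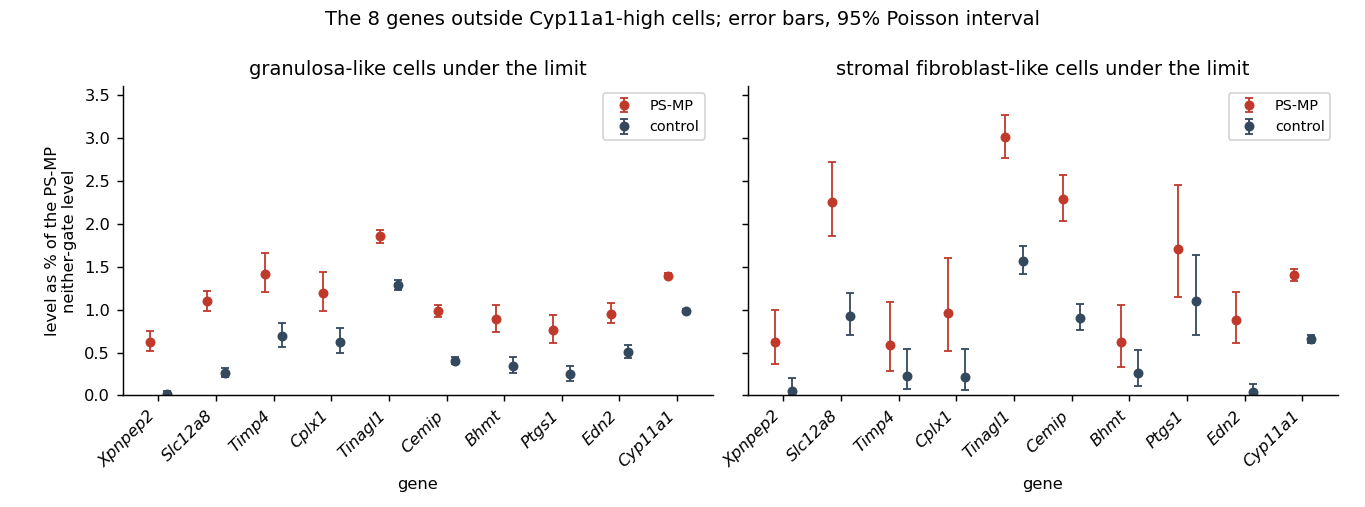
Level of the 8 genes, Edn2 and Cyp11a1 in granulosa-like (left) and stromal fibroblast-like (right) cells under the Cyp11a1 limit, as percent of the level in PS-MP cells of the neither gate, with 95% Poisson intervals, for the PS-MP library (red) and the control library (dark blue). In granulosa-like cells the PS-MP points lie between 0.623% and 1.85% and each lies above its control point.

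Granulosa-like cells as a whole had a summed level of the 8 genes of 44.3 CPM (42.9 to 45.7) in the PS-MP and 24.3 CPM (23.3 to 25.2) in the control library. Tinagl1 made up 24.7 CPM of it in PS-MP cells and 17.2 CPM in control cells, and was the only member with 20 CPM there. It differed between the granulosa-like clusters in both libraries: cluster 0, led by Rnase1 and Pik3ip1, had 51.3 CPM in PS-MP and 44.3 CPM in control cells, and the other 5 clusters between 13.7 and 18.9 CPM in PS-MP and between 2.95 and 9.06 CPM in control cells. Cemip was highest in cluster 9, led by Itpr2, at 34.7 CPM in PS-MP and 22.4 CPM in control cells, against 5.52 to 10.48 CPM and 0.960 to 5.11 CPM in the other 5.

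Few of the 8 genes could be called between the libraries outside Cyp11a1-high cells, as most stayed under 20 CPM in both libraries. In granulosa-like cells 0 of 1 member with 20 CPM was at least 2-fold higher in PS-MP cells, where 0.0136% of 7347 genes were. The members under 20 CPM there could not be called, and their ratios ran from 1.92 (Cplx1) to 27.7 (Xpnpep2, on 5 control UMIs). In stromal fibroblast-like cells 1 of 2 was higher (Cemip, 21.2 CPM in PS-MP and 8.36 CPM in control cells), where 0.167% of 7166 genes were. In endothelial-like cells 1 of 3 was higher (Cemip, 23.9 CPM in PS-MP and 2.24 CPM in control cells), where 0.419% of 7162 genes were. In macrophage or monocyte-like cells 1 of 2 was higher (Tinagl1, 20.1 CPM in PS-MP and 4.24 CPM in control cells), where 0.572% of 6819 genes were. No member was at least 2-fold lower in PS-MP cells of these 4 types, where 0.109% (granulosa-like), 0.0419% (stromal fibroblast-like), 0.447% (endothelial-like) and 0.191% (macrophage or monocyte-like) of genes were. Each of the 3 calls was of a gene that reached 20 CPM only in PS-MP cells, so nothing is read from the shares beside them. The control value of Cemip in endothelial-like cells rested on 6 UMIs. Cyp11a1 stood higher in PS-MP cells of the 3 types with a call, at ratios of 2.13, 2.42 and 1.95 in the order given. Lhcgr had ratios of 0.869, 1.91 and 1.18 in the same order, the second on 33 PS-MP and 23 control UMIs. The part of released RNA in the calls was not tested.

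Across 22 profiles, each a cell group of 1 library with at least 50 cells, the genes whose log2(CPM + 1) went most closely with the mean of the 8 were Sstr1, a somatostatin receptor (Pearson r = 0.945), Edn2 (0.941) and Slc25a30, a mitochondrial carrier (0.928), out of 11278 eligible genes. The next were Tnfrsf12a, the receptor of TWEAK (0.912), Mmel1, a neprilysin-like peptidase (0.900), Mrfap1 (0.897), Sav1, a scaffold of the Hippo kinases (0.896), Ermp1 (0.891), Lgr4, a receptor of R-spondins (0.888), and Plin5, a lipid droplet protein (0.887). The profiles share 2 libraries and the genes were chosen for 1 of the groups, so these values describe likeness only. Sstr1 stood at 299 CPM in PS-MP and 107 CPM in control cells of the neither gate, and Lgr4 at 249 CPM in PS-MP and 55.7 CPM in control cells. Unlike these, Plin5 stood lower in PS-MP than in control cells of the neither gate, at 63.6 CPM in PS-MP and 136 CPM in control cells, and Mmel1 stood at 47.0 CPM in PS-MP and 46.5 CPM in control cells. Among the 8 genes themselves, r ran from 0.411 (Tinagl1 with Ptgs1) to 0.967 (Xpnpep2 with Timp4). All 13 pairs with Tinagl1 or Ptgs1 had a lower r than every other pair.

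The families that the 8 genes belong to were measured in PS-MP cells, the neither gate against granulosa-like cells under the limit. Over all 7854 genes with at least 20 CPM in 1 of these groups, 815 (10.4%) were at least 2-fold higher in the neither gate and 976 (12.4%) at least 2-fold lower, with a median log2 ratio of −0.10. All 8 members were higher, and the choice of genes used these cells. Each family count below includes its own member, which adds 1 higher gene by choice.

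Of the basement membrane genes, 9 of 14 measured genes were higher and 1 lower, with a median log2 ratio of 1.55. Beside Tinagl1 they included Col4a1, a collagen IV chain, at 1018 CPM in the neither gate and 96.4 CPM in granulosa-like cells, Col4a2 at 410 CPM (neither gate) and 41.8 CPM (granulosa-like), and Hspg2, perlecan, at 180 CPM (neither gate) and 25.5 CPM (granulosa-like). Of the metalloproteinases and their inhibitors, 8 of 16 were higher and 0 lower, with a median of 1.02. These included Adamts1, a protease of ovulation that cleaves versican, at 1284 CPM (neither gate) and 72.4 CPM (granulosa-like), Timp1, an inhibitor like Timp4, at 301 CPM (neither gate) and 27.1 CPM (granulosa-like), and Mmp19 at 39.7 CPM (neither gate) and 0.930 CPM (granulosa-like).

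The genes of prostaglandin handling went both ways, with 3 of 10 higher and 4 lower and a median of −0.46. Beside Ptgs1, Ptgfr was higher at 54.7 CPM in the neither gate and 1.77 CPM in granulosa-like cells, although cells with most Ptgfr had been taken out by the gate. Ptgs2, the inducible cyclooxygenase, was at 26.7 CPM (neither gate) and 5.62 CPM (granulosa-like). The terminal synthase Ptges was lower, at 27.4 CPM (neither gate) and 239 CPM (granulosa-like), and so was Hpgd, which breaks prostaglandins down, at 13.02 CPM (neither gate) and 115 CPM (granulosa-like). In the methionine and 1-carbon list Bhmt was the only gene higher among 15, and 5 were lower, among them Cbs, which removes homocysteine by another route, at 10.04 CPM in the neither gate and 35.2 CPM in granulosa-like cells.

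Of the hyaluronan genes, 3 of 8 were higher and 1 lower (median 0.34): Cemip, Vcan at 399 CPM (neither gate) and 166 CPM (granulosa-like) and Tnfaip6 at 47.0 CPM (neither gate) and 20.5 CPM (granulosa-like) were higher, and the cell cycle-linked receptor Hmmr was lower. Of the complexins, SNAREs and synaptotagmins, 4 of 15 were higher and 1 lower (median 0.17). They were Cplx1, Rab27a at 103 CPM (neither gate) and 4.13 CPM (granulosa-like), Rab3a at 80.5 CPM (neither gate) and 14.1 CPM (granulosa-like) and Stx1a at 45.2 CPM (neither gate) and 10.8 CPM (granulosa-like), while the calcium sensor Syt7 was lower, at 33.8 CPM (neither gate) and 236 CPM (granulosa-like). Among the cation-chloride cotransporters and their kinases 2 of 8 were higher, Slc12a8 and Slc12a7 at 106 CPM (neither gate) and 28.2 CPM (granulosa-like), with a median of 0.08. Among the peptidases 2 of 10 were higher, Xpnpep2 and Cpe, carboxypeptidase E at 1118 CPM (neither gate) and 452 CPM (granulosa-like), with a median of 0.19. Genes of ovulation and luteinisation, chosen for such cells, were all higher (25 of 25, median 4.13), and this list holds Cyp11a1, on which the cells were selected. In all these lists, higher means against granulosa-like cells only. In the PS-MP Akr1c18/Ptgfr gate Timp1 stood at 775 CPM, Mmp19 at 44.4 CPM, Tnfaip6 at 54.0 CPM and Ptgs2 at 33.6 CPM, above the neither gate. Adamts1 at 580 CPM, Col4a1 at 456 CPM and Rab27a at 47.2 CPM stood below it there.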

How the data were processed

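Single-cell RNA was captured from ovaries of the PS-MP and the control group on BD Rhapsody beads, 1 library each, per the labels' protocols. The authors deposited whole-number UMI counts per gene and cell, not normalized. Build GRCm39 and the tool Seurat are listed in the submitters' processing notes, and the aligner is not given in the sources used here.

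From these counts, cells with at least 500 genes and at most 25% mitochondrial counts were kept, and doublets called by scrublet (expected rate 0.05) were left out: 358 cells (2.42%) in the PS-MP library and 315 (2.12%) in the control library. Of the 15056 PS-MP and 15373 control cells deposited, 14412 and 14538 stayed. No cell had fewer than 3500 UMIs. Both libraries were clustered together with scanpy 1.11.5 and Leiden (2000 variable genes with the 8 genes left out, 30 principal components, 15 neighbours, resolution 0.5, seed 1). Of the 16 clusters, 15 were called "X-like" by the marker list with the highest mean level relative to the other clusters, among lists with at least 3 markers at 20 CPM. Cluster 13 was left unnamed because immunoglobulin genes, which are not on the list it scored for, led it. A member or gene was called between 2 groups of cells where it reached 20 CPM in 1 of them and differed at least 2-fold. Intervals are exact Poisson for levels, Clopper-Pearson for shares and conditional binomial for ratios, at 95%, and the limit for a count of 0 is 3 counts. Calls of the step across all genes were tested on simulated counts.

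Named beside the 8 genes were the 6 genes of the gates and of luteinising cells, the 10 genes most like the 8 and up to 4 members of each list with the largest change. Ptgs2 and Stx1a were named after their values had been seen. The 8 members, the gates and the lists were chosen with earlier results of these data known. The bins within cluster 5 and the split of cluster 11 and of the theca-like cells by gate were added after the data had been seen. Promoter windows were added as a description although their build, GRCm38.p6, is not that of the counts. No paired or replicate test was possible. Alternatives were other Cyp11a1 limits, doublet and mitochondrial filters, thinning, 2 UMIs for detection and other clusterings.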

Additional observations from a re-analysis of the deposited data

How the results depend on the processing

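Of 38 alternatives to the 6 main values, 18 stayed within the counting interval and 20 moved beyond it. The PS-MP library stayed above the control library in each, but the choice of genes used this contrast, so nothing is read from that direction. The summed level of the 8 genes in PS-MP Cyp11a1-high cells, 2927 CPM, was 2783 CPM at a Cyp11a1 limit of 1000 CPM, 3117 CPM at 4000 CPM, 2849 CPM with called doublets kept, 3111 CPM at no more than 15% mitochondrial counts and 3018 CPM thinned to 3500 UMIs. The control level, 488 CPM, was 420 CPM at the limit of 1000 CPM, 530.2 CPM at 4000 CPM, 554 CPM at 15% mitochondrial counts and 411 CPM thinned. The share with at least 4 genes, 69.7% in PS-MP cells, was 65.2% at the limit of 1000 CPM, 74.1% at 4000 CPM, 74.7% at 15% mitochondrial counts, 52.7% thinned and 52.7% when 2 UMIs counted as detected. In control cells this share, 10.9%, was 8.56% at 1000 CPM, 14.0% at 4000 CPM, 1.39% thinned and 3.63% with 2 UMIs. In PS-MP granulosa-like cells the summed level, 44.3 CPM, was 42.2 CPM at the limit of 1000 CPM and 45.7 CPM thinned. For the shares, thinning and the 2-UMI rule leave fewer detections by construction. For the levels, thinning gives every cell the same weight whatever its depth. The levels moved both ways, up in PS-MP and down in control Cyp11a1-high cells. The cause of these and of the other shifts was not tested. No paired analysis was possible because each group was 1 library.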
